A study of Homo sapiens with 18 samples.

Results

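The RBM genes, named for the RNA-binding motif of their proteins, are described here across 2 human cell lines and 2 drug treatments. Members were chosen by name: protein-coding genes whose symbol is RBM followed by a digit. Of 38 such symbols in the GENCODE annotation on GRCh37, 36 had an identifier in the count files, and 32 of these reached 10 reads in at least 3 of the 18 libraries, out of 57905 genes counted in all. The identifiers of RBM8A and RBM15B were not matched, and RBM20, RBM24, RBM46 and the readthrough gene RBM14-RBM4 stayed below the minimum. The rule uses names and numbers of reads and no difference between treatments, but it was set with earlier results of these data known. Poly(A)-selected RNA came from KMS12-BM, an established line with the disease label multiple myeloma, and from JJN3, an established line with the label plasma cell leukemia. Each line had a group labelled as untreated with DMSO, for which no duration was stated, and groups treated for 24 h with amiloride or TG003, with 3 libraries in each of the 6 groups. Amiloride, a potassium-sparing diuretic that inhibits epithelial sodium channels, was used at 0.1 mM in KMS12-BM and at 0.4 mM in JJN3. TG003, an inhibitor of the CLK kinases, which act on SR proteins of the splicing machinery, was used at 0.4 mM in both lines. Whether replicate libraries came from separate cultures is not recorded in the labels, and the p-values thus reflect the spread between these samples alone, which may be technical.

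RBM proteins share the RNA recognition motif, a small fold that binds short stretches of single-stranded RNA. The family is not a single pathway: its members serve in the spliceosome and in the choice of alternative exons, in ribosome assembly in the nucleolus, in RNA methylation, in the handover of nuclear RNA to the exosome, and in messenger stability. Several of them control exons that decide between forms of apoptosis regulators, and one, RBM39, is the protein that aryl sulfonamide drugs such as indisulam bring to degradation.

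Reads assigned to genes ranged from 23707695 to 50570234 per library, of which the 32 members held 52733 to 154272 reads, or 0.2087% to 0.3628%. Read placement differed in the 6 TG003 libraries: processed pseudogenes held 0.0734% to 0.0974% of the reads in those libraries and 4.22% to 5.28% in the other 12. Reads without a unique place were 7.79% to 9.13% of the reads in or outside genes with TG003 and 13.3% to 17.4% in the other 12. All reads outside genes, which include these, were 17.5% to 19.0% with TG003 and 28.0% to 31.2% in the other 12. Among pseudogenes named for members, RBM39P1 had 0 to 2 reads per TG003 library and 423 to 1385 in each other library, and RBM7P1 had 0 against 99 to 328. Adding such pseudogene reads to their parents changed no call of a member, and any other effect of read placement on the TG003 values was not tested. All 8 plasma cell markers had reads, at a summed 904 to 3150 CPM (counts of a gene relative to the scaled library total), but unevenly. IRF4 alone held 461 to 2210 CPM in KMS12-BM and 436 to 1070 in JJN3. SLAMF7 stayed at 0.0336 to 0.778 CPM in KMS12-BM and 0.347 to 2.79 in JJN3. SDC1 was at 2.35 to 14 CPM in KMS12-BM, and CD38 at 2.07 to 6.83 CPM in JJN3. The T cell, monocyte, stromal and endothelial lists each stayed at or under 2.71 CPM in sum. The endothelial list had 3 of its 4 markers matched. Of the erythroid markers, HBB reached 21.3 to 65.8 CPM in JJN3 and at most 0.0767 CPM in KMS12-BM, and HBA1 reached 5.04 to 11 CPM in KMS12-BM.

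Untreated cells held members at very unequal levels. Per kilobase of exon, RBM3, a cold-inducible RNA-binding protein, had the highest level in both lines, at 66.9 ± 4.7 CPM per kb in KMS12-BM and 43.2 ± 2.0 in JJN3 (SD, n = 3). It was followed in both lines by RBM12 (39.6 and 38.0 CPM per kb) and by RBM42 (35.0 and 33), and these first ranks did not overlap between neighbours except RBM42 and RBM38 (32) in KMS12-BM. Exon length here joins the exons of all annotated transcripts of a gene, and can far exceed the length of its canonical transcript. For RBM39 it is 11974 bases against 5060, and for RBM12 6702 against 6646. Ranks by canonical transcript were not made, and the ranks given hold for joined exons alone. At the low end of KMS12-BM stood RBM44 (0.264 CPM per kb), RBM43 (0.261), RBM47 (0.0623) and RBM11, which had no read in any of the 9 libraries of that line. JJN3 ended with RBM41 (1.06), RBM34 (0.752) and RBM44 (0.0405). Of the 31 pairs of neighbours in the order of levels, 13 overlapped in range over the 3 libraries in KMS12-BM and 15 in JJN3, so the middle ranks are not separated by these data. The members held 2746 ± 24 CPM in sum in KMS12-BM and 2282 ± 65 in JJN3.

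**Figure D1:**
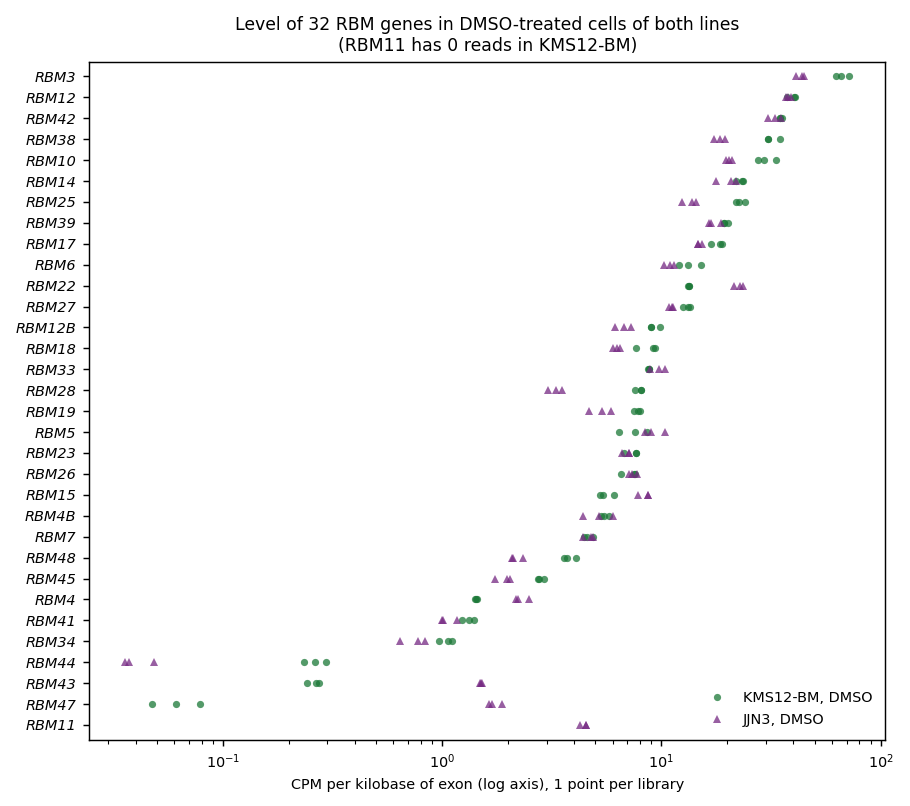
Level of each of the 32 RBM genes in untreated (DMSO) cells, in CPM per kilobase of exon on a log axis, with 1 point per library (circles KMS12-BM, triangles JJN3, 3 libraries each). RBM3 lies highest in both lines, and RBM47 and RBM43 lie lower in KMS12-BM than in JJN3, while RBM44 lies higher. RBM11, with no reads in KMS12-BM, has points for JJN3 alone.

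The comparison of the untreated lines asks how the family differs before any drug. KMS12-BM had more RNA of 15 members and less of 7 among 32 tested, with 10 not called at an adjusted p under 0.05 (edgeR, Benjamini-Hochberg over all genes). The called members are 68.8% of the family, and 76% of all 17772 genes tested were called, 36.8% higher and 39.3% lower. At least a 2-fold difference was called for 5 members and for 43.9% of all genes, and the CPM ranges did not overlap for 25 members and for 78.5% of all genes. The median log2 difference was 0.21 over the members and -0.04 over all genes, and the former stays the same with RBM11 set at its bound, since it is the lowest value either way. In these bulk libraries, fewer cells expressing a gene and less of its RNA per cell cannot be told apart.

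The widest gaps between the lines lay in members that were close to absent from one of them. RBM11 met the minimum of reads for members in JJN3 alone, and RBM44 almost only in KMS12-BM. The gaps of RBM11 and RBM44 are therefore partly set by the choice of members. RBM47, a cofactor of APOBEC1 in the editing of messenger RNA, read 0.406, 0.670 and 0.522 CPM in the 3 KMS12-BM libraries and 16.1, 14.5 and 13.9 CPM in those of JJN3 (log2 -4.77 ± 0.16, adjusted p = 2.9e-16). RBM11, a splicing regulator described in brain and testis, read 10.1, 10.8 and 10.7 CPM in JJN3, a sum of 919 reads, against 0 in KMS12-BM. Set against a floor of 3 reads over the group, RBM11 was at least 421-fold higher in JJN3. RBM43 followed the same order, with 1.23 ± 0.0754 CPM (SD, n = 3) in KMS12-BM and 7.07 ± 0.0862 in JJN3 (log2 -2.53 ± 0.16, adjusted p = 7.74e-12). The opposite order held for RBM44, a gene known from germ cells, at 1.59, 1.79 and 1.41 CPM in KMS12-BM and 0.217, 0.226 and 0.293 in JJN3 (log2 2.70 ± 0.26, adjusted p = 7.45e-09). No library of one line reached the range of the other for any of these members.

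Among members above 5 CPM on average, the nucleolar RBM28 was the most raised in KMS12-BM, at 126 ± 4.80 CPM against 52.2 ± 3.86 in JJN3 (SD, n = 3; log2 1.27 ± 0.08, adjusted p = 1.21e-11). RBM48 of the minor spliceosome (0.81 ± 0.10), the messenger-stability factor RBM38 (0.79 ± 0.09), the splicing factor RBM25 (0.76 ± 0.08) and RBM3 (0.63 ± 0.10) came next. RBM10 (0.56 ± 0.09) and RBM6 (0.32 ± 0.09) were also higher in KMS12-BM. On the lower side were the spliceosome subunit RBM22 (-0.76 ± 0.08), the splicing regulator RBM4 (-0.68 ± 0.11), RBM15 of the RNA methylation complex (-0.59 ± 0.10) and RBM5 (-0.29 ± 0.10). RBM39 was at 0.16 ± 0.07, adjusted p = 0.0549 and was not called, but it was called with upper-quartile scaling (adjusted p = 0.0151), with DESeq2's test (adjusted p = 0.0355), with limma's voom (adjusted p = 0.0494) and with the replicate block (adjusted p = 0.042). The pairing behind the block was not checked across the lines. The call for RBM5 was lost without KMS12-BM DMSO replicate 1 or without JJN3 DMSO replicate 1 (adjusted p of 0.0993 to 0.107, with values of -0.40 to -0.19 over all fits that left out 1 library), and its ranges overlapped between the lines. RBM27 and RBM41 were no longer called when no filter on low counts was used.

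Amiloride against DMSO in KMS12-BM, at 0.1 mM, gave more called members than any other comparison with DMSO, and also more called genes in all. Of 31 members tested (RBM11 had no reads), 17 rose and 6 fell, or 54.8% and 19.4%, while 33.5% of all 15765 genes tested were called higher and 35.2% lower. In either direction 74.2% of members and 68.7% of all genes were called. The median log2 fold change was 0.43 over the members and -0.02 over all genes. At least 2-fold rises were seen in 5 members and at least 2-fold falls in 2, and 29.6% of all genes were called and changed at least 2-fold in either direction. The CPM ranges of the 2 groups did not overlap for 25 members, nor for 71.7% of all genes. The summed level of the family went from 2753, 2765 and 2719 CPM in the DMSO libraries to 3317, 3499 and 3646 CPM with amiloride, with no overlap. The 5 largest rises among members above 5 CPM on average were in RBM38, RBM41, RBM18, RBM48 and RBM7, and the 5 largest falls in RBM4B, RBM12, RBM14, RBM23 and RBM12B. Of the 23 calls, 21 held under every alternative tried, and RBM17 (0.06) and RBM26 (0.07) were lost when the trend of counts on GC content was removed from each library.

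In JJN3, treated at 0.4 mM, the amiloride response of the family was smaller. Of 31 members tested (RBM44 had too few reads to be tested), 10 rose and 6 fell, which is 51.6% called against 43.6% of all 15704 genes, with 19.7% of all genes higher and 23.9% lower. No member was called with a 2-fold change, while 7.14% of all genes were, and the ranges of the groups did not overlap for 19 members and for 51.7% of all genes. The median was 0.13 over the members and -0.03 over all genes, and with upper-quartile scaling the split was 11 higher to 4 lower. The summed level was 2307, 2332 and 2208 CPM with DMSO and 2583, 2558 and 2521 CPM with amiloride, again without overlap. The largest rises were in RBM45, RBM42, RBM19, RBM39 and RBM22, and the largest falls among members above 5 CPM in RBM4B, RBM11, RBM12B, RBM43 and RBM33. Mitochondrially encoded genes held 0.265% to 0.448% of the reads in KMS12-BM with amiloride and 3.86% to 4.25% with DMSO, and in JJN3 they held 0.709% to 1.03% with amiloride and 2.06% to 2.61% with DMSO. The part of that shift in the family's summed level was not tested.

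3 of the JJN3 calls with amiloride were lost when 1 library was left out, and such calls are termed weakly held below. RBM26 was at 0.25 ± 0.08 and lost its call without DMSO replicate 1, DMSO replicate 3 or amiloride replicate 2 (0.20 to 0.28 over the fits with 1 library left out). RBM33, at -0.23 ± 0.08, lost it without DMSO replicates 2 or 3, amiloride replicate 3 or TG003 replicate 3 (-0.28 to -0.17), and also with upper-quartile scaling, no filter on low counts or a fit without the other drug. RBM12, at -0.16 ± 0.06, adjusted p = 0.0459, lost it whichever library of the line was left out (-0.18 to -0.14), and also under those 3 settings or with DESeq2's size factors.

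TG003 against DMSO in KMS12-BM, at 0.4 mM, moved members evenly in both directions. Of 31 tested, 8 rose and 8 fell (51.6% called, against 58.6% of all 15765 genes, with 26.9% higher and 31.7% lower). The ranges of the groups did not overlap for 22 members and for 68.6% of all genes. The median was 0.03 over the members and -0.03 over all genes. With upper-quartile scaling the split was 11 to 6. With the libraries blocked by the sets that their title numbers form, a pairing that the replicates bear out in this comparison, RBM6 (0.25, adjusted p = 0.0165), RBM14 (-0.20, adjusted p = 0.0278) and RBM18 (0.24, adjusted p = 0.0236) were called as well. Removal of the GC trend gave a split of 10 to 10, with RBM6 (0.26, adjusted p = 0.0211), RBM17 (-0.14, adjusted p = 0.0396), RBM27 (-0.22, adjusted p = 0.0118) and RBM42 (0.27, adjusted p = 0.0379) gained. The largest rises above 5 CPM were in RBM4, RBM19, RBM22, RBM39 and RBM10, and the largest falls in RBM3, RBM12, RBM15, RBM38 and RBM4B.

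In JJN3, at the same dose, TG003 raised 11 of 31 members and lowered 11 (71.0% called, against 58.3% of all 15704 genes, with 26.2% higher and 32.1% lower). The ranges of the groups did not overlap for 24 members and for 66.3% of all genes. The median was 0.07 over the members and -0.04 over all genes. The largest rises were in RBM5, RBM28, RBM39, RBM19 and RBM10, and the largest falls above 5 CPM in RBM47, RBM3, RBM15, RBM4B and RBM33. In either line, 1 member changed at least 2-fold: RBM3 in KMS12-BM and RBM47 in JJN3, both downward, where 22.8% and 19.1% of all genes changed so far in those comparisons. The amiloride and TG003 comparisons of a line share its 3 DMSO libraries, so their values are given side by side below and are not independent of each other.

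Several TG003 calls in KMS12-BM were weakly held. RBM5 (0.31 ± 0.11) was lost without DMSO replicates 1 or 2 or any 1 of the TG003 libraries (0.21 to 0.41). RBM28 (0.19 ± 0.08, adjusted p = 0.0499) was lost without any 1 of the DMSO or TG003 libraries or amiloride replicate 2 (0.16 to 0.22), with DESeq2's size factors or test and without a filter, and RBM4B (-0.33 ± 0.12) without any 1 of the DMSO or TG003 libraries (-0.36 to -0.30) and with upper-quartile scaling. RBM15 (-0.37 ± 0.12) was lost without DMSO replicate 1 or TG003 replicate 2 (-0.42 to -0.30), and RBM44 (-0.55 ± 0.20) without DMSO replicates 1 or 2 or TG003 replicate 1 (-0.65 to -0.39), with upper-quartile scaling and with limma's voom. The number of members called lower was 8 with all libraries and 5 without DMSO replicate 1. In JJN3, RBM7 and RBM42 were lost without DMSO replicate 3 or TG003 replicate 1 (-0.33 to -0.20 and 0.19 to 0.33), RBM14 without DMSO replicates 1 or 2 or TG003 replicates 2 or 3 (-0.33 to -0.18), and RBM18 without any 1 of the DMSO libraries or TG003 replicates 2 or 3 (0.19 to 0.30).

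**Figure D2:**
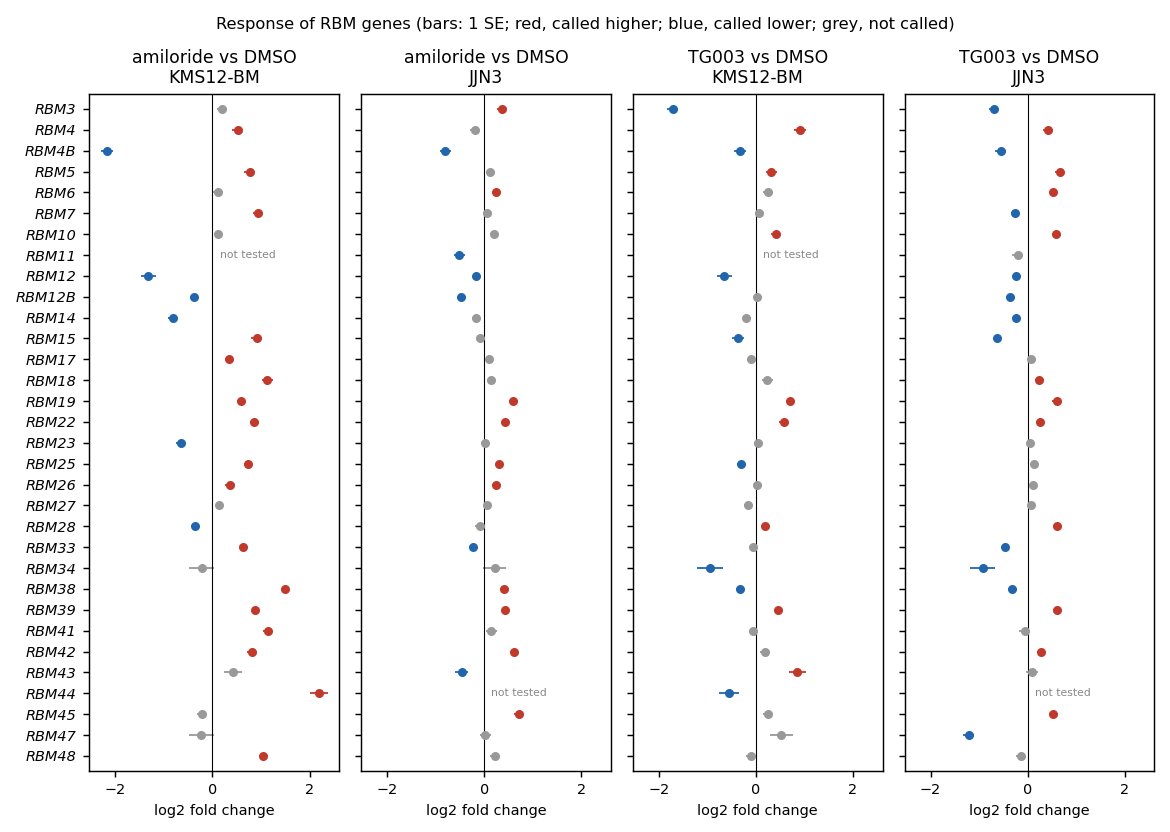
Log2 fold change of each RBM gene against DMSO for amiloride and TG003 in both lines (x axes, 1 panel per comparison), with bars of 1 SE; red points were called higher, blue lower and grey not called at an adjusted p under 0.05. With amiloride in KMS12-BM 17 genes lie to the right and 6 to the left among those called, and with TG003 the calls are 8 and 8 in KMS12-BM and 11 and 11 in JJN3.

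RBM3, the cold-inducible member (chromosome X, 48432837 to 48439550, plus strand, GRCh37), was lowered by TG003 in both lines. In KMS12-BM the DMSO libraries read 418, 386 and 364 CPM and the TG003 libraries 134, 101 and 119 CPM (log2 -1.72 ± 0.11, adjusted p = 9.88e-08, ± being 1 SE here and below). In JJN3 the values were 262, 239 and 255 CPM with DMSO and 155, 150.4 and 152 with TG003 (-0.69 ± 0.10, adjusted p = 5.07e-05). Every TG003 library lay below every DMSO library of its line, and although untreated KMS12-BM had more RBM3 than untreated JJN3, with TG003 the order of the lines turned. The fall was larger in KMS12-BM by 1.0 ± 0.15 on the log2 scale (interaction of line and drug, adjusted p = 0.000189), a difference that held under every alternative tried.

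With amiloride RBM3 read 438, 416 and 492 CPM in KMS12-BM, which overlapped the DMSO range (0.20 ± 0.10, adjusted p = 0.106, not called). The amiloride libraries of JJN3 read 379, 323 and 278 CPM, above all 3 DMSO libraries, and RBM3 rose there by 0.37 ± 0.10, adjusted p = 0.00848. Replicate 1 stood highest, and without it the rise was 0.24. The difference between the lines in this response was not called (-0.17 ± 0.15, adjusted p = 0.383).

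**Figure D3:**
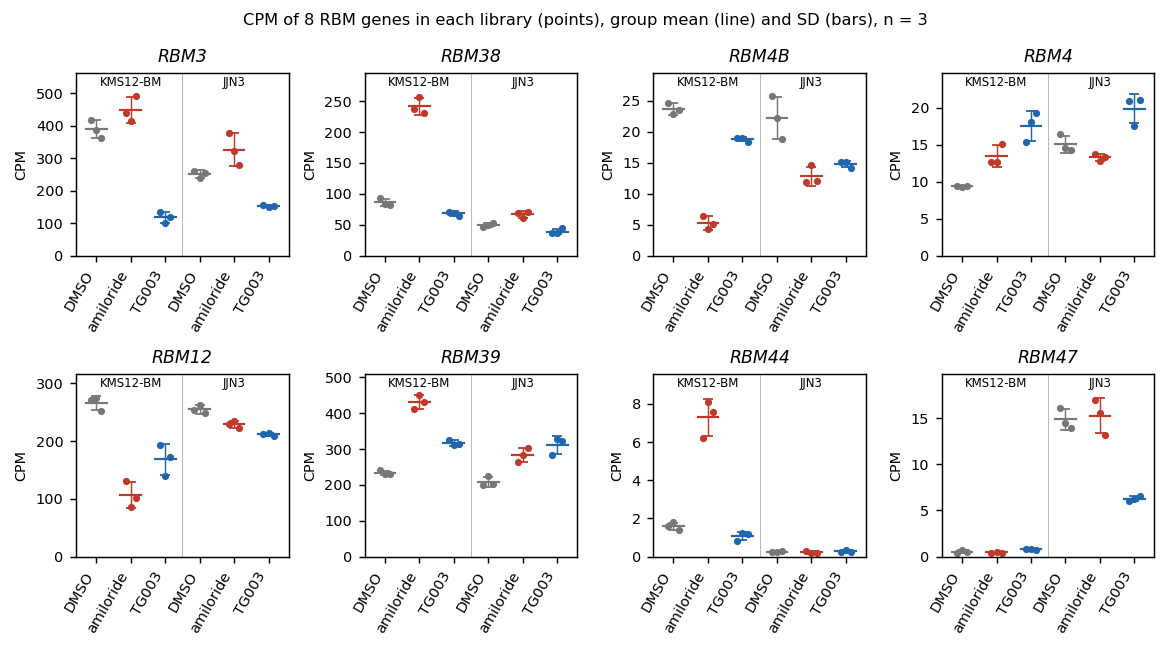
CPM of 8 RBM genes in each of the 18 libraries (points), with the group mean (line) and SD (bars, n = 3), for DMSO, amiloride and TG003 in KMS12-BM and JJN3; each y axis starts at 0. RBM3 is lowest with TG003 in both lines, RBM38 and RBM44 are highest with amiloride in KMS12-BM, RBM4B and RBM12 are lowest there, and RBM47 in JJN3 is lowest with TG003.

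RBM38, also known as RNPC1, is an RNA-binding target of p53 that regulates the stability of messengers, among them those of the p53 pathway (chromosome 20, 55966452 to 55984389, plus strand). It had the largest rise with amiloride in KMS12-BM among members above 5 CPM, from 93.3, 82.8 and 82.7 CPM to 238, 257 and 231 CPM (1.49 ± 0.08, adjusted p = 6.44e-08). The amiloride libraries all lay far above the DMSO libraries, and in JJN3, at 46.8, 50.1 and 52.6 CPM with DMSO and 68.9, 60.6 and 70.4 with amiloride, they did so by less (0.41 ± 0.09, adjusted p = 0.0033). TG003 lowered RBM38 in both lines, to 71.2, 69.4 and 64.5 CPM in KMS12-BM (-0.33 ± 0.08) and 36.7, 36.4 and 44 in JJN3 (-0.32 ± 0.09). RBM38 therefore moved up with one drug and down with the other in both lines. Its transcript has a GC content of 63.2%, and removing the trend of counts on GC content raised its amiloride value in KMS12-BM from 1.49 to 2.08.

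RBM4 and RBM4B are neighbouring paralogs on chromosome 11 that encode closely related regulators of alternative splicing. RBM4 runs on the plus strand (66406138 to 66435845) and RBM4B on the minus strand (66432469 to 66445358), so their annotated ends overlap, over 13.75% of the exon length of RBM4B. Their RNA moved apart. RBM4B read 24.7, 22.9 and 23.5 CPM with DMSO in KMS12-BM and 6.37, 4.24 and 5.17 CPM with amiloride, the largest fall of the family in this comparison (-2.17 ± 0.13, adjusted p = 1.29e-07). In the same libraries RBM4 went from 9.41, 9.30 and 9.42 CPM to 12.6, 12.7 and 15.1 CPM (0.52 ± 0.12, adjusted p = 0.00175). The groups did not overlap for either gene, so one paralog fell in all 3 amiloride libraries while the other rose in all 3.

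With TG003 in KMS12-BM, RBM4 rose further, to 15.3, 18 and 19.3 CPM (0.91 ± 0.12, adjusted p = 4.24e-05), while RBM4B read 19.0, 18.9 and 18.4 CPM (-0.33 ± 0.12, one of the weakly held falls). JJN3 showed the same directions with TG003: RBM4 was at 16.4, 14.5 and 14.2 CPM with DMSO and 20.9, 17.6 and 21.0 with TG003 (0.42 ± 0.10, adjusted p = 0.0028). RBM4B was at 25.7, 22.2 and 18.8 and 15.1, 15.1 and 14.2 CPM (-0.56 ± 0.12, adjusted p = 0.00119). With amiloride in JJN3, RBM4B fell to 11.9, 14.5 and 12.0 CPM (-0.80 ± 0.12, adjusted p = 0.000184), and RBM4 at 13.8, 12.8 and 13.3 CPM was not called (-0.19 ± 0.10, adjusted p = 0.161). RBM4B was thus lower in all 4 drug comparisons. The readthrough RBM14-RBM4 shares 23.81% of the exon length of RBM4, and reads that fall in more than 1 gene may have been left uncounted. No strand setting of the counting is given in the sources used here.

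The promoters of these 4 genes are shown because the results above turn on these genes: RBM3 and RBM38 for their falls with TG003 and the rise of RBM38 with amiloride, RBM4 and RBM4B as a pair that diverged. Each is the RefSeq window on GRCh38.p14 from 250 bases before to 50 bases after the start of the gene, 5′ to 3′ on the strand of the gene, at chrX:48574234-48574533 for RBM3 and chr20:57391146-57391445 for RBM38, both on the plus strand, at chr11:66638453-66638752 on the plus strand for RBM4, and at chr11:66677838-66678137 on the minus strand for RBM4B. Capitals mark matches, on either strand, to 6 motifs: the CCAAT box (CCAAT), the cAMP response element (TGACGTCA), the E-box (CACGTG), the GC box (GGGCGG), an ETS site (CCGGAAG) and the TATA box (TATAAA).
RBM3: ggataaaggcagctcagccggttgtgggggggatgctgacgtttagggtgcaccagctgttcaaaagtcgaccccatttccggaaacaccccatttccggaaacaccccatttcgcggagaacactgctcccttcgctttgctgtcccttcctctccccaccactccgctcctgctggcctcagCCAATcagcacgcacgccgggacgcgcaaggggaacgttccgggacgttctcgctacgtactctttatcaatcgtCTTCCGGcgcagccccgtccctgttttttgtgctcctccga
RBM38: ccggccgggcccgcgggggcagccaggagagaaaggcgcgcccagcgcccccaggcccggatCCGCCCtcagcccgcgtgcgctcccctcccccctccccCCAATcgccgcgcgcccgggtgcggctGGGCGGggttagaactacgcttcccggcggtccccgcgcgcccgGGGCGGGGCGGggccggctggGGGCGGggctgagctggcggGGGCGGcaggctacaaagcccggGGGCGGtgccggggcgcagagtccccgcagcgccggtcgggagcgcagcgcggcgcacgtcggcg
RBM4: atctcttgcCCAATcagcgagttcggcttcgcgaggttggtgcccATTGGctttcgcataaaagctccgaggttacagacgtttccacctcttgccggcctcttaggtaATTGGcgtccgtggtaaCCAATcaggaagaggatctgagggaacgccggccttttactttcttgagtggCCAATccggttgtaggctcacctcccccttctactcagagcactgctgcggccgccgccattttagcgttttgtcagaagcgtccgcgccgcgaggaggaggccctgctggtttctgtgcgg
RBM4B: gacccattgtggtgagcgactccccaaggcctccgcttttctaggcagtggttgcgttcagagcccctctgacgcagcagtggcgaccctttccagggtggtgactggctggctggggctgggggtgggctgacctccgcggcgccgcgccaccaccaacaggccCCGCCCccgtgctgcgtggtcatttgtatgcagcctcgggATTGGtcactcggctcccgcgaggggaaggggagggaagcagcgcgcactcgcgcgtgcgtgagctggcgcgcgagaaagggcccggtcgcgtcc

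The 4 windows differ in base composition and in these matches. RBM38 has 82.7% GC and 7 GC boxes, some of them overlapping, beside 1 CCAAT box, while RBM4 has 57.3% GC, 5 CCAAT boxes and no GC box. RBM4B has 69.3% GC with 1 match of each, and RBM3 has 59.3% GC with 1 CCAAT box and 1 ETS site. Windows were at hand for 28 of the 32 members (not for RBM12B, RBM39, RBM43 and RBM48), with a median GC content of 61.5% against 58.3% over 27305 promoters. A CCAAT box was found in 17 of the 28 (60.7%, against 35.7% of all promoters), a GC box in 17 (60.7%, against 44.6%) and an ETS site in 7 (25.0%, against 10.7%). The cAMP response element was found in 3 (RBM12, RBM18 and RBM42, 10.7% against 2.0%), the E-box in 2 (RBM15 and RBM19, 7.1% against 7.4%) and the TATA box in 2 (RBM26 and RBM47, 7.1% against 12.0%). Letters that match are a description of the sequence and not a measured site.

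RBM5, RBM6 and RBM10 are related splicing regulators with known roles in the choice of exons in apoptosis genes, and RBM5 and RBM6 lie side by side on chromosome 3 (50126352 to 50156454 and 49977440 to 50137478, plus strand). With TG003 in JJN3 all 3 rose: RBM5 from 107, 87.3 and 93.0 CPM to 143, 153 and 148 CPM (0.66 ± 0.09, adjusted p = 3.22e-05). RBM6 went from 79.8, 83.1 and 75.2 to 110.5, 112 and 111 CPM (0.52 ± 0.07, adjusted p = 2.26e-05). RBM10 went from 72.2, 74.6 and 69.7 to 113, 98.8 and 103 CPM (0.57 ± 0.08, adjusted p = 6.1e-05). Every TG003 library was above every DMSO library for each of them. In KMS12-BM, TG003 raised RBM10 from 119, 104 and 97.3 to 144, 144 and 135 CPM (0.40 ± 0.09, adjusted p = 0.00322), and RBM5 (0.31 ± 0.11, weakly held) and RBM6 (0.24 ± 0.10, adjusted p = 0.0517, called with the block) lay on the same side.

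Amiloride separated the 3 in KMS12-BM. RBM5 rose from 66.2, 78.7 and 89.5 CPM to 127, 121 and 152 CPM (0.77 ± 0.11, adjusted p = 7.12e-05), with no overlap of the groups. RBM6 was at 0.12 ± 0.10, adjusted p = 0.306 and RBM10 at 0.12 ± 0.09, adjusted p = 0.268, both with overlapping ranges and neither called. With the GC trend removed RBM10, whose transcript has 60.6% GC, was called at 0.62. In JJN3 with amiloride RBM6 rose (0.24 ± 0.07), while RBM5 (0.13 ± 0.09) and RBM10 (0.20 ± 0.08, adjusted p = 0.0636) were not called. RBM10 was called there with DESeq2's test (adjusted p = 0.0463). RBM5 and RBM6 share 6.25% of the exon length of RBM6 on the same strand, and genes on the opposite strand cover 17.46% of the exon length of RBM5.

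RBM39, a splicing factor related to U2AF (chromosome 20, 34289269 to 34330234, minus strand), rose in all 4 drug comparisons. In KMS12-BM the DMSO libraries read 240.2, 230.1 and 229.7 CPM, the amiloride libraries 412, 449.7 and 430.4 (0.88 ± 0.06, adjusted p = 3.47e-07) and the TG003 libraries 325, 311 and 315 (0.45 ± 0.06, adjusted p = 9.58e-05). In JJN3 they read 199, 225 and 203, then 264, 284 and 303 with amiloride (0.44 ± 0.08, adjusted p = 0.000834) and 282, 328 and 323 with TG003 (0.61 ± 0.08, adjusted p = 2.81e-05). All 12 treated libraries lay above all 6 DMSO libraries in reads of RBM39 itself. With the reads of its pseudogene RBM39P1 added, RBM39 rose by 0.34 in KMS12-BM and 0.50 in JJN3 with TG003, and by 0.88 and 0.46 with amiloride. For RBM23, its paralog, the direction differed: with amiloride in KMS12-BM it fell from 107, 108 and 94.7 to 69.8, 56.6 and 71.7 CPM (-0.65 ± 0.10, adjusted p = 9.31e-05). In the other 3 drug comparisons RBM23 lay between 0.01 and 0.05 and was not called.

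RBM17, RBM22, RBM25 and RBM42, known from the spliceosome itself, rose with amiloride in KMS12-BM. RBM22, which contacts U6 snRNA in the active spliceosome, rose in all 4 drug comparisons: in KMS12-BM from 48.0, 47.9 and 47.7 CPM to 78.4, 91.6 and 91.3 with amiloride (0.86 ± 0.09, adjusted p = 4.27e-06) and to 65.8, 77.7 and 69.0 with TG003 (0.57 ± 0.09, adjusted p = 0.000174). JJN3 went from 84.7, 81.8 and 76.8 CPM to 116, 104 and 109.6 with amiloride (0.43 ± 0.07) and 95.2, 94.0 and 95 with TG003 (0.25 ± 0.07). The DMSO libraries of KMS12-BM were close together, and no group overlapped with its DMSO group. RBM42, found in the tri-snRNP, rose with amiloride in both lines, from 77.2 ± 0.927 to 136 ± 19.0 CPM in KMS12-BM (SD, n = 3; 0.82 ± 0.10) and from 72.8 ± 5.02 to 112 ± 7.72 CPM in JJN3 (0.61 ± 0.09). With TG003 it was at 0.18 ± 0.10 in KMS12-BM (not called as fitted) and 0.27 ± 0.09 in JJN3 (weakly held).

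RBM25, which acts with the U1 particle and in the choice between forms of BCL2L1, changed with the drug. In KMS12-BM it went from 258, 265 and 282 CPM to 399, 449 and 489 with amiloride (0.73 ± 0.08, adjusted p = 9.81e-06) but to 221, 204 and 225 with TG003 (-0.30 ± 0.08, adjusted p = 0.00806). Amiloride libraries lay above and TG003 libraries below the DMSO range. In JJN3 RBM25 rose with amiloride, from 168, 162 and 146 to 199, 200 and 195 CPM (0.31 ± 0.07), and was not called with TG003 (0.13 ± 0.07). RBM17, also named SPF45, which helps in recognising the 3′ splice site, was at 115 ± 6.96 CPM in untreated KMS12-BM and 145 ± 6.76 with amiloride (SD, n = 3; 0.34 ± 0.07, lost with the GC trend removed). It was not called as fitted in the other 3 drug comparisons, with group means of 94.8 to 102 CPM in JJN3.

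RBM41 and RBM48 are proteins of the minor spliceosome, which removes the rare U12-type introns. Both more than doubled with amiloride in KMS12-BM: RBM41 from 12.8, 12.1 and 11.3 CPM to 26.3, 26.1 and 27.2 CPM (1.14 ± 0.09, adjusted p = 6.91e-07). RBM48 went from 24.6, 25.4 and 27.9 to 47.5, 53.5 and 60.4 CPM (1.05 ± 0.10, adjusted p = 2.62e-06). The groups were far apart for both. None of the other 3 drug comparisons called either gene, and the values lay between -0.15 and 0.23. With the GC trend removed the rise of RBM41 in KMS12-BM was 0.71.

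Of 12 other genes of the minor spliceosome, 6 rose and 2 fell with amiloride in KMS12-BM (median 0.34), a comparison in which 33.5% of all genes were called higher and 35.2% lower. There ZRSR2, which recognises its 3′ splice site, was at 1.4 ± 0.12 and the cyclophilin gene PPIL2 at -2.12 ± 0.12. With amiloride in JJN3, where 19.7% and 23.9% of all genes were called, 2 rose and none fell (median 0.01), and SCNM1 (0.54 ± 0.09) and ZRSR2 (0.70 ± 0.12) were those 2. TG003 raised 7 and lowered 1 in each line (medians 0.38 in KMS12-BM and 0.39 in JJN3), against 26.9% of all genes higher and 31.7% lower in KMS12-BM and 26.2% and 32.1% in JJN3. CENATAC was at 1.32 ± 0.18 in KMS12-BM and 1.13 ± 0.10 in JJN3 with TG003. With TG003, more of these partners were called higher than lower while RBM41 and RBM48 were not called.

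RBM7 is the RNA-binding subunit of the NEXT complex, which delivers nuclear RNA to the exosome, and RBM26 and RBM27 are zinc finger proteins linked to the PAXT branch of that pathway. With amiloride in KMS12-BM, RBM7 rose from 35.1, 36.0 and 38.5 CPM to 61.9, 69.3 and 79.3 CPM (0.94 ± 0.10, adjusted p = 5.46e-06, or 0.51 with the GC trend removed). RBM7 in JJN3 was at 37.1 ± 2.03 CPM with DMSO and 38.5 ± 2.11 with amiloride (SD, n = 3), which overlapped, and with TG003 it fell to 30.1 ± 2.74 (-0.27 ± 0.08, adjusted p = 0.0145, weakly held). Adding the reads of RBM7P1 made that fall -0.41. RBM26 was at 72.9 ± 5.88 CPM in untreated KMS12-BM and 93.7 ± 9.11 with amiloride (0.36 ± 0.09, lost with the GC trend removed), and was not called with TG003. RBM27 was not called against DMSO as fitted, with group means of 87.1, 96.1 and 77.5 CPM for DMSO, amiloride and TG003 in KMS12-BM and 74.2, 77.3 and 76.5 CPM in JJN3. It was called in KMS12-BM once the GC trend was removed, both with amiloride, where its sign turned from 0.14 to -0.18 (adjusted p = 0.0248), and with TG003 (-0.22, adjusted p = 0.0118). A second gene on the same strand covers 44.78% of its exon length.

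Among 12 partners of these 3 members in the NEXT, PAXT and exosome lists, 8 rose and 2 fell with amiloride in KMS12-BM (median 0.49), beside 33.5% and 35.2% of all genes. ZFC3H1, the scaffold of PAXT, was at 1.56 ± 0.13, and the exosome cofactor MPHOSPH6 at -2.50 ± 0.21. In JJN3 with amiloride 7 rose and 1 fell (median 0.22; all genes 19.7% and 23.9%), with the nuclease DIS3 at 0.68 ± 0.07. TG003 raised 4 and lowered 1 in KMS12-BM (median 0.09; all genes 26.9% and 31.7%) and raised 7 and lowered none in JJN3 (median 0.34; all genes 26.2% and 32.1%). ZFC3H1 rose with TG003 in both lines, by 1.11 ± 0.13 and 0.74 ± 0.09.

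RBM33, linked to the export and demethylation of messengers, had a response that differed between the treated lines. KMS12-BM received the lower dose of amiloride, so line and dose cannot be told apart for that drug. With TG003, given at equal doses, the difference between the lines was 0.43 and weakly held. Amiloride raised RBM33 in KMS12-BM from 115, 115 and 113 to 160.2, 182 and 192 CPM (0.64 ± 0.09, adjusted p = 4.01e-05). In JJN3 it was at 117, 137 and 128 CPM with DMSO, 114, 114 and 99.3 with amiloride (-0.23 ± 0.08, weakly held) and 84.5, 97.5 and 90.6 with TG003 (-0.46 ± 0.08, adjusted p = 0.000371). TG003 in KMS12-BM gave 105, 121 and 103 CPM, around the DMSO values (-0.05 ± 0.09, adjusted p = 0.624, not called).

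RBM15 recruits the complex that writes N6-methyladenosine to its target RNAs. With amiloride it rose in KMS12-BM from 28.5, 24.5 and 25.2 CPM to 41.2, 48.0 and 57.5 CPM (0.91 ± 0.12, adjusted p = 3.18e-05), and in JJN3 it was at 36.5, 40.4 and 40.6 and 40.2, 37.8 and 33.9 CPM, which overlapped (-0.08 ± 0.08, adjusted p = 0.461, not called). TG003 lowered it in both lines, to 20.7, 19.1 and 20.2 CPM in KMS12-BM (-0.37 ± 0.12, weakly held) and 24.7, 25.0 and 24.9 CPM in JJN3 (-0.62 ± 0.08, adjusted p = 2.38e-05). Each of the 6 TG003 libraries had less RBM15 than any DMSO library of its line. Of 6 other genes of the writer complex, 5 rose and 1 fell with amiloride in KMS12-BM (median 0.66, beside 33.5% of all genes higher and 35.2% lower), with the ligase gene CBLL1 at 1.48 ± 0.12 and the scaffold gene VIRMA at 0.89 ± 0.09. In JJN3 with amiloride 3 rose and 1 fell (median 0.28, all genes 19.7% and 23.9%), among them both catalytic-core genes METTL3 (0.55 ± 0.07) and METTL14 (0.51 ± 0.07). With TG003, 1 rose and 1 fell in KMS12-BM (median 0.01, all genes 26.9% and 31.7%), and 2 rose and none fell in JJN3 (median 0.14, all genes 26.2% and 32.1%).

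RBM8A, the exon junction complex protein also called Y14, had no matched identifier and so no value here. Its 12 partner genes in that complex gave 6 higher and 2 lower with amiloride in KMS12-BM (median 0.21, beside 33.5% and 35.2% of all genes) and 5 higher and 1 lower in JJN3 (median -0.001, beside 19.7% and 23.9%). With TG003, 5 were higher and none lower in KMS12-BM (median 0.21, beside 26.9% and 31.7% of all genes), and 5 higher and 1 lower in JJN3 (median 0.17, beside 26.2% and 32.1%). UPF3B, which links the complex to nonsense-mediated decay, was at 1.38 ± 0.11 and 0.46 ± 0.07 with amiloride in KMS12-BM and JJN3, and its paralog UPF3A at 0.79 ± 0.07 and 0.99 ± 0.08 with TG003. The processed copy RBM8B had 1246 to 3614 reads in each DMSO and amiloride library and 0 to 5 in each TG003 library.

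RBM19, RBM28 and RBM34 are nucleolar proteins, the first 2 with known roles in ribosome assembly. RBM19 rose in all 4 drug comparisons. The DMSO libraries of KMS12-BM read 46.8, 44.1 and 45.7 CPM, the amiloride libraries 60.5, 74.3 and 71.1 (0.59 ± 0.09, adjusted p = 7.33e-05) and the TG003 libraries 72.0, 72.5 and 76.5 (0.70 ± 0.09, adjusted p = 3.23e-05). In JJN3 the DMSO libraries read 34.7, 31.5 and 27.4 CPM, the amiloride libraries 44.7, 46.7 and 50.9 (0.60 ± 0.09, adjusted p = 0.000283) and the TG003 libraries 48.8, 45.8 and 44.2 (0.60 ± 0.09, adjusted p = 0.000122). No treated library overlapped the DMSO range, and the 4 rises lay within 0.59 to 0.70. With the GC trend removed the rise with amiloride in KMS12-BM was 0.94.

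RBM28 fell with amiloride in KMS12-BM, from 120.3, 129 and 128 to 88.6, 101 and 104 CPM (-0.36 ± 0.08, adjusted p = 0.00125), and was not called in JJN3 (-0.10 ± 0.08). TG003 raised it in JJN3 from 56.0, 52.4 and 48.3 to 72.9, 82.0 and 79.0 CPM (0.61 ± 0.08, adjusted p = 3.5e-05), and the call in KMS12-BM was the weakly held 0.19 ± 0.08. RBM34, which had 1.14 to 3.10 CPM on average in the 6 groups, was lower with TG003 in both lines (-0.94 ± 0.27, adjusted p = 0.0102 in KMS12-BM and -0.93 ± 0.26, adjusted p = 0.00827 in JJN3). A neighbour on the same strand, ARID4B, covers 48.62% of the exon length of RBM34, and reads shared with it may have been left uncounted.

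RBM12, RBM12B and RBM14 are nuclear proteins encoded by few exons, RBM14 being known as a paraspeckle component. RBM12 read 271, 274 and 252 CPM with DMSO in KMS12-BM, 131, 86.2 and 101 with amiloride (-1.32 ± 0.15, adjusted p = 2.08e-05) and 193, 140 and 172 with TG003 (-0.65 ± 0.15, adjusted p = 0.00379). The treated libraries of KMS12-BM were spread more widely than the DMSO libraries but all lay below them. In JJN3, TG003 gave 213, 213 and 209 CPM against 253, 263 and 248 with DMSO (-0.24 ± 0.06, adjusted p = 0.00451). RBM14 fell with amiloride in KMS12-BM from 153, 151 and 142 to 92.9, 76.7 and 83.2 CPM (-0.82 ± 0.09, adjusted p = 7.41e-06) and was not called in JJN3 (-0.16 ± 0.08). RBM12B was lower with amiloride in both lines, at 82.0 ± 4.29 CPM and 63.0 ± 2.0 CPM in KMS12-BM (SD, n = 3; -0.38 ± 0.08, or -0.75 with the GC trend removed) and 59.1 ± 5.01 and 43.0 ± 3.94 in JJN3 (-0.47 ± 0.10). With TG003 RBM12B fell in JJN3 (-0.36 ± 0.10) and was at 0.02 ± 0.08 in KMS12-BM, not called. Genes on the opposite strand cover 46.59% of the exon length of RBM12B, and the strand setting of the counting is not given.

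The remaining members are tissue-restricted or less studied. RBM44 rose with amiloride in KMS12-BM from 1.59, 1.79 and 1.41 CPM to 6.19, 8.12 and 7.56 CPM (2.19 ± 0.18, adjusted p = 9.09e-07), the largest rise of the family in this comparison, though from a low level. The 9 libraries of JJN3 held 0.164 to 0.34 CPM of RBM44. RBM47 in JJN3 fell with TG003 from 16.1, 14.5 and 13.9 CPM to 6.05, 6.22 and 6.53 CPM (-1.21 ± 0.11, adjusted p = 1.02e-06), and with amiloride stayed at 16.9, 15.6 and 13.2 CPM (0.03 ± 0.11, adjusted p = 0.875, not called). RBM47 in KMS12-BM read 0.406, 0.670 and 0.522 CPM with DMSO, 0.409, 0.522 and 0.437 with amiloride and 0.781, 0.826 and 0.714 with TG003, and was not called with either drug (-0.23 ± 0.26 and 0.52 ± 0.24). RBM11 fell in JJN3 with amiloride from 10.1, 10.8 and 10.7 to 8.0, 8.10 and 6.34 CPM (-0.51 ± 0.11, adjusted p = 0.00253) and was not called with TG003 (-0.21 ± 0.11).

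RBM43 was raised by TG003 in KMS12-BM, from 1.25, 1.29 and 1.15 to 2.16, 2.23 and 2.24 CPM (0.85 ± 0.18, adjusted p = 0.00178), and lowered by amiloride in JJN3, from 6.99, 7.16 and 7.08 to 5.42, 5.87 and 4.24 CPM (-0.46 ± 0.13, adjusted p = 0.0113). RBM45, an RNA-binding protein known from inclusions in motor neuron disease, rose in JJN3 with both drugs. It read 9.77, 9.47 and 8.33 CPM with DMSO, 14.0, 15.9 and 15.5 with amiloride (0.71 ± 0.10, adjusted p = 9.51e-05) and 13.1, 13.3 and 12.6 with TG003 (0.53 ± 0.10, adjusted p = 0.000407). In KMS12-BM it was at -0.21 ± 0.11 with amiloride and 0.24 ± 0.11 with TG003, neither called. RBM18 rose with amiloride in KMS12-BM from 39.8, 48.6 and 47.7 to 90.4, 98.6 and 109 CPM (1.13 ± 0.11, adjusted p = 3.3e-06), while in JJN3 it was at 32.6 ± 1.2 CPM with DMSO and 36.1 ± 3.29 with amiloride (SD, n = 3), which overlapped.

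Amiloride and TG003 were given at the same dose, 0.4 mM, in JJN3 alone, and the comparison of the drugs was made there. Read placement also differed between these groups. Processed pseudogenes held 4.22% to 4.35% of the reads with amiloride and 0.0763% to 0.0939% with TG003. The part of read placement in the differences below was not tested beyond adding pseudogene reads to their parents. Of 31 members tested, 11 were higher with amiloride and 7 lower (58.1% called, against 62.2% of all 15704 genes, with 33.3% higher and 28.9% lower). The ranges of the groups did not overlap for 21 members and for 67.3% of all genes, and 3 members were called with at least a 2-fold difference, against 22.1% of all genes. The median was 0.08 over the members and 0.03 over all genes. RBM47 (1.24 ± 0.11, adjusted p = 6.68e-07), RBM3 (1.06 ± 0.10, adjusted p = 8.22e-07) and RBM38 (0.73 ± 0.09, adjusted p = 1.67e-05) were the most raised with amiloride relative to TG003 among members above 5 CPM, followed by RBM15 (0.55 ± 0.08) and RBM48 (0.38 ± 0.10). For RBM3 the amiloride libraries read 379, 323 and 278 CPM and the TG003 libraries 155, 150.4 and 152 CPM, with no overlap. RBM34, at a low level, was at 1.14 ± 0.26.

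The members with less RNA in amiloride than in TG003 were led by RBM28 (-0.70 ± 0.08, adjusted p = 7.67e-06), RBM4 (-0.61 ± 0.10, adjusted p = 0.000156), RBM43 (-0.55 ± 0.13), RBM5 (-0.53 ± 0.09, adjusted p = 0.000159) and RBM10 (-0.37 ± 0.08, adjusted p = 0.00156), with RBM6 at -0.27 ± 0.07. RBM39 was at -0.17 ± 0.08, adjusted p = 0.0825 and RBM19 at 0.00 ± 0.09, adjusted p = 0.991, neither called. With the reads of RBM39P1 added, RBM39 was at -0.035. Removal of the GC trend called RBM26 (0.17, adjusted p = 0.0284) and RBM45 (0.21, adjusted p = 0.0467) as well. RBM25 (0.18 ± 0.07), RBM22 (0.18 ± 0.07), RBM33 (0.23 ± 0.08) and RBM11 (-0.30 ± 0.11) were called but weakly held. RBM25 was lost without amiloride replicates 1 or 2 or any 1 TG003 library (0.16 to 0.20), and RBM22 without DMSO replicate 2, amiloride replicates 1 or 3 or any 1 TG003 library (0.14 to 0.22). RBM33 was lost without amiloride replicates 1 or 2 or TG003 replicates 1 or 3 (0.18 to 0.29), and RBM11 without amiloride replicate 3 or any 1 TG003 library (-0.36 to -0.19), with no filter on low counts and in a fit without the DMSO libraries.

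Whether the lines differed in their response was tested by the interaction of line and drug in 1 fit of all 18 libraries. For amiloride 19 of 32 members were called (59.4%, against 43.2% of all 17772 genes), 14 with a higher response in KMS12-BM and 5 with a lower one, where 21.6% of all genes lay on each side. The median difference was 0.22 over the members and 0.01 over all genes, and 4 members and 18.1% of all genes differed at least 2-fold. The dose of amiloride was lower in KMS12-BM, so line and dose cannot be told apart in this difference. The difference was largest upward in RBM38 (1.07 ± 0.12, adjusted p = 7.57e-07), RBM41 (0.99 ± 0.14), RBM15 (0.98 ± 0.15), RBM18 (0.98 ± 0.15) and RBM7 (0.88 ± 0.13), and in RBM44 (2.39 ± 0.41) at a low level. RBM44, counted among the 19 and the 4, met the minimum of reads almost only in KMS12-BM. It was too low to be tested in JJN3 alone, so its response there is poorly known. Downward it was largest in RBM4B (-1.38 ± 0.18, adjusted p = 4.22e-06), RBM12 (-1.17 ± 0.17, adjusted p = 9.57e-06), RBM45 (-0.93 ± 0.15), RBM14 (-0.66 ± 0.12) and RBM23 (-0.66 ± 0.12). Of the splicing regulators, RBM5 (0.64 ± 0.15), RBM25 (0.41 ± 0.11) and RBM39 (0.44 ± 0.10) were called, and RBM6 (-0.13 ± 0.12) and RBM10 (-0.09 ± 0.13) were not. Once the GC trend was removed, RBM25 (0.11, adjusted p = 0.398) and RBM39 (0.24, adjusted p = 0.0549) were no longer called, while RBM42 (from 0.20 to 0.65, adjusted p = 0.000302), RBM28 (from -0.27 to -0.34, adjusted p = 0.00797) and RBM10 (0.29, adjusted p = 0.0432) were.

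The TG003 response, at equal doses, differed between the lines in 9 of 32 members (28.1%, against 13.9% of all 17772 genes), 6 with a higher response in KMS12-BM and 3 with a lower one, where 7.13% and 6.8% of all genes did. The median difference was 0.02 in both, and 1 member, RBM47, and 3.7% of all genes differed at least 2-fold. RBM47 (1.75 ± 0.24, adjusted p = 8.26e-05), RBM3 (-1.0 ± 0.15, adjusted p = 0.000189) and RBM25 (-0.41 ± 0.11, adjusted p = 0.0136) held under every alternative tried. The 6 others were weakly held: RBM43 (0.79 ± 0.22) was lost without KMS12-BM DMSO replicate 3 (0.73 to 0.85 over the fits with 1 library left out). RBM33 (0.43 ± 0.12) was lost without KMS12-BM DMSO replicate 3, JJN3 DMSO replicate 2, KMS12-BM TG003 replicate 2 or JJN3 TG003 replicates 1 or 3 (0.35 to 0.49). RBM28 (-0.39 ± 0.11) was lost without KMS12-BM DMSO replicates 2 or 3, JJN3 DMSO replicate 3, KMS12-BM TG003 replicates 1 or 2 or JJN3 TG003 replicates 2 or 3 (-0.45 to -0.34). RBM4 (0.51 ± 0.15) was lost without any 1 KMS12-BM DMSO library, JJN3 DMSO replicate 1, KMS12-BM TG003 replicates 2 or 3 or JJN3 TG003 replicate 2 (0.42 to 0.61), and RBM22 (0.34 ± 0.11) without any 1 DMSO or TG003 library other than JJN3 DMSO replicate 3 and KMS12-BM TG003 replicate 1 (0.27 to 0.40). RBM12B (0.40 ± 0.13) was lost without any of 11 libraries: KMS12-BM DMSO replicates 1 or 2, amiloride replicates 2 or 3 and TG003 replicates 1 or 3, and JJN3 DMSO replicates 2 or 3, amiloride replicate 1 and TG003 replicates 1 or 3 (0.32 to 0.48). RBM4, RBM22 and RBM12B were also lost with no filter on low counts, and RBM12B in a fit without the amiloride libraries. The number of members with a higher response in KMS12-BM was 6 with all libraries and 2 without KMS12-BM DMSO replicate 3. It was 3 without KMS12-BM DMSO replicates 1 or 2, JJN3 DMSO replicate 2, KMS12-BM TG003 replicates 2 or 3, or JJN3 TG003 replicates 1 or 3. RBM5 (-0.32 ± 0.15), RBM6 (-0.25 ± 0.12), RBM10 (-0.14 ± 0.13), RBM15 (0.28 ± 0.15) and RBM39 (-0.13 ± 0.10) were not called, which does not show that the lines responded alike.

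**Figure D4:**
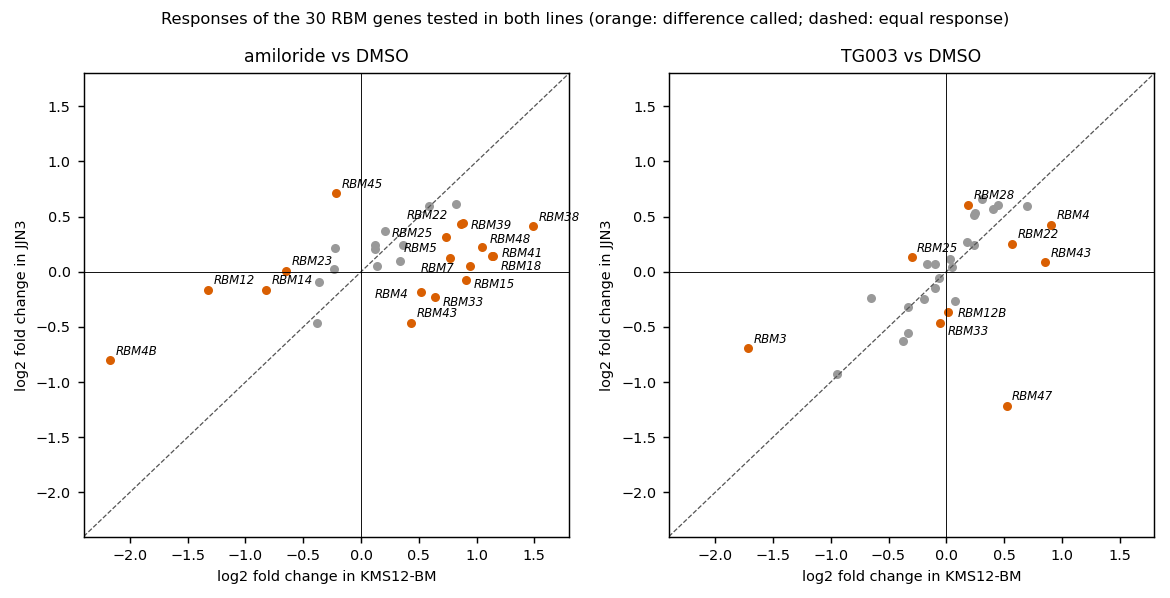
Log2 fold change in JJN3 (y axis) against that in KMS12-BM (x axis) for the 30 RBM genes tested in both lines, for amiloride (left) and TG003 (right); orange points are genes whose response differed between the lines by the interaction test, and the dashed line marks equal responses. With amiloride most of the called genes lie below the dashed line at positive values in KMS12-BM, and with TG003 RBM3 and RBM47 lie farthest from it.

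2 features of the transcripts that the choice of members did not use were set beside the responses. The first was GC content: with amiloride in KMS12-BM, Spearman's rho between GC content and log2 fold change was -0.372 across 11778 coding genes and -0.175 across the 31 members, as a description across genes, which share libraries and are not independent. With the GC trend removed per library, 16 members were higher and 8 lower in that comparison, in place of 17 and 6, and 21 calls were kept. RBM10 (0.62), RBM27 (-0.18) and RBM45 (-0.42) were gained. Values moved by more than 1.5 times for RBM42 (from 0.82 to 1.45), RBM25 (from 0.73 to 0.38), RBM7, RBM12B, RBM19 and RBM41, whose values are given above.

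The second was the number of exons. 8 members have at most 4 exons in the canonical transcript: RBM4, RBM4B, RBM12, RBM12B, RBM14, RBM15, RBM38 and RBM43. With TG003 in JJN3, 6 of these 8 were lower and 1 higher (median -0.29), while of the 23 others 5 were lower and 10 higher (median 0.12). Of all 15704 genes tested there, 32.1% were called lower and 26.2% higher. Over coding genes of the same comparison the medians were -0.24 for 2414 genes with at most 4 exons and 0.06 for 9595 with more. In KMS12-BM with TG003 the members' medians were -0.26 and 0.07, and those of coding genes -0.22 and 0.05. With amiloride the medians of the members were 0.03 and 0.59 in KMS12-BM, where those of coding genes were -0.01 in both classes, and -0.18 and 0.20 in JJN3 (coding genes 0.00 and -0.02). These splits, and the part of read placement in those with TG003, were not tested.

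**Figure D5:**
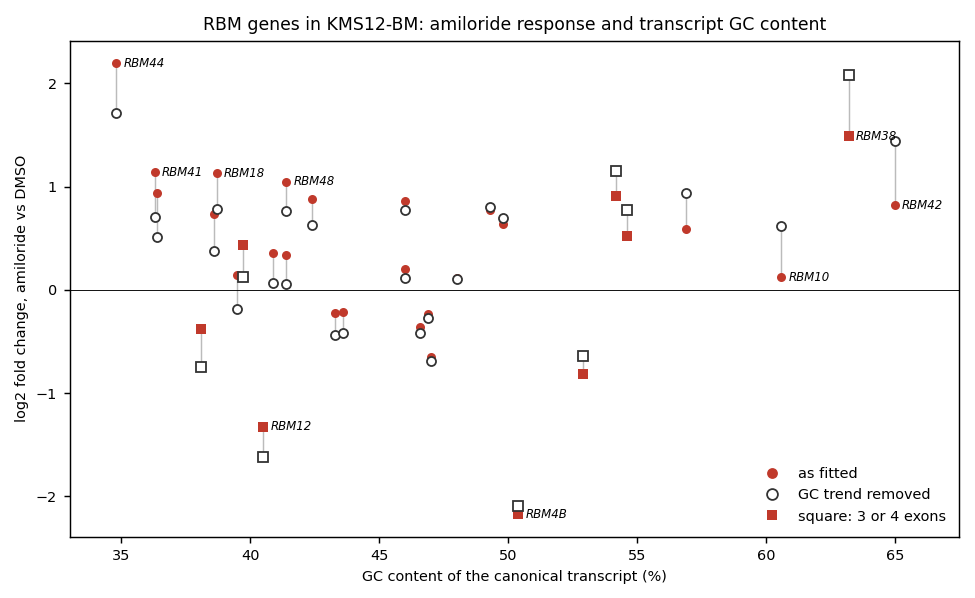
Log2 fold change with amiloride in KMS12-BM (y axis) of 31 RBM genes against the GC content of the canonical transcript in percent (x axis), as fitted (filled) and with the GC trend removed (open), joined by a line for each gene; squares are genes with 3 or 4 exons. Genes of high GC content such as RBM42, RBM38 and RBM10 move up when the trend is removed, and genes of low GC content such as RBM41 and RBM18 move down.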

How the data were processed

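Poly(A)-selected RNA of 18 libraries, 3 in each of 6 groups, had been sequenced and counted per Ensembl gene, and the deposited files hold raw read counts. Per the submitters' processing notes, the authors used cutadapt 1.4, TopHat2 2.0.11, the hg19 genome, HTSeq 0.6.1p1 and DESeq2 1.12.4. Not given in the sources used here are the alignment options, the counted annotation and its strand setting; per the labels the library kit was strand-specific. Deposited tables of normalized values were not used. Reads outside genes stayed out of library sizes. They were 17.5% to 19.0% per library with TG003 and 28.0% to 31.2% with DMSO or amiloride. Identifiers were paired with symbols through the GENCODE annotation on GRCh37. 55538 of 57905 identifiers matched.

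Genes were tested with edgeR 4.0.16 (R 4.3.3): its filter on expression (minimum count 10, total 15), TMM scaling and the robust quasi-likelihood test, with Benjamini-Hochberg adjustment over all genes and a threshold of 0.05. The 9 libraries of a line were fitted together for its drug comparisons, and all 18 for the comparison of the lines and the interactions. Log2 changes are given ± SE, with the SE taken as the size of the change over the square root of the F statistic. CPM values use 1 TMM scaling over the 18 libraries and are given ± SD (n = 3). Library totals of 23707695 to 50570234 reads limit precision for members of few CPM; reads carry no molecular identifiers, so the floor of 3 reads covers counting error only. GC content and exon numbers are those of the canonical or, failing that, the longest transcript. Exon length joins the exons of all annotated transcripts of a gene.

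Alternatives were DESeq2's size factors, upper-quartile scaling, no filter, 1 CPM in 3 libraries, the test of DESeq2 1.42.0, voom of limma 3.58.1, a replicate block, removal of a GC trend (lowess, span 0.3), addition of pseudogene counts, a fit of only the groups compared, and leaving out each library. The code was tested on simulated data. For the block, the numbers in the titles, which run in 3 sets of 6, were taken as pairs. Same-numbered libraries deviated together (every r over 0.1) between all groups of KMS12-BM (lowest 0.104) and between DMSO and TG003 in JJN3 (lowest 0.328). They did not all do so between amiloride and DMSO (0.049 to 0.094) or TG003 (-0.071 to 0.283) in JJN3. In KMS12-BM, DMSO replicate 2 with amiloride replicate 3 (0.104) and amiloride replicate 3 with TG003 replicate 2 (0.241) also passed 0.1. The other differently numbered pairs of that line stayed under 0.1.

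Named in every comparison were RBM3, RBM5, RBM6, RBM10, RBM15, RBM25 and RBM39 (RBM8A had no value), with the 5 largest called rises and falls among members above 5 CPM. The members, the partner lists (exon junction complex, nuclear exosome targeting, N6-methyladenosine writer, minor spliceosome, RBM-like genes) and the marker lists were chosen with earlier results of these data known.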

Additional observations from a re-analysis of the deposited data

Results flagged for a closer look

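The response to a drug differed between KMS12-BM and JJN3, by the test of the interaction in edgeR, for 19 members with amiloride and 9 with TG003. Groups of 3 libraries are too small for a check of single outlying samples. Values are differences of log2 fold changes, KMS12-BM minus JJN3, with adjusted p-values over all genes.

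With amiloride, at a lower dose in KMS12-BM, the germ cell gene RBM44 differed by 2.39 (adjusted p = 8.09e-05), against JJN3 libraries at the limit of detection. RBM44 met the minimum of reads almost only in KMS12-BM and was too low to be tested in JJN3 alone. Its response in JJN3 is therefore poorly known, and this p-value does not show that the lines differed. RBM38 differed by 1.07 (adjusted p = 7.57e-07), RBM41 by 0.99 (9.46e-06), RBM15 by 0.98 (1.69e-05) and RBM18 by 0.98 (1.89e-05). RBM43 differed by 0.89 (0.00261), RBM7 by 0.88 (1.91e-05), RBM33 by 0.87 (1.15e-05) and RBM48 by 0.81 (8.32e-05). The splicing factors RBM4 (0.70, adjusted p = 0.000968), RBM5 (0.64, 0.00129), RBM39 (0.44, 0.00175), RBM22 (0.42, 0.0034) and RBM25 (0.41, 0.00377) also responded more strongly upward in KMS12-BM. A lower response in KMS12-BM was called for RBM23 (-0.66, adjusted p = 0.000102), RBM14 (-0.66, 0.000159), RBM45 (-0.93, 2.94e-05), RBM12 (-1.17, 9.57e-06) and RBM4B (-1.38, 4.22e-06).

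With TG003 the difference was 1.75 for RBM47 (adjusted p = 8.26e-05), which stood under 1 CPM in KMS12-BM, and -1.0 for RBM3 (0.000189). RBM43 differed by 0.79 (0.0177), RBM4 by 0.51 (0.0305), RBM33 by 0.43 (0.024), RBM12B by 0.40 (0.0476) and RBM22 by 0.34 (0.042). RBM28 differed by -0.39 (0.0243) and RBM25 by -0.41 (0.0136).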

How the results depend on the processing

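Without a filter on low counts, the number of members with a higher TG003 response in KMS12-BM was 3 in place of 6, of more genes tested. With the GC trend removed, the difference between the lines in the amiloride response of RBM10 turned from -0.09 to 0.29 (adjusted p = 0.0432), and the cause was not tested. Leaving out each library in turn gave, as members called higher and lower, 17 to 18 and 6 with amiloride in KMS12-BM, 9 to 11 and 4 to 5 with amiloride in JJN3, 6 to 10 and 5 to 10 with TG003 in KMS12-BM, and 9 to 11 and 10 to 11 with TG003 in JJN3. For amiloride against TG003 in JJN3 the ranges were 8 to 11 and 6 to 8, for the untreated lines 15 to 16 and 6 to 7, for the amiloride interaction 14 to 15 and 5 to 6, and for the TG003 interaction 2 to 7 and 2 to 4. With the replicate block, 10 members were higher and 9 lower with TG003 in KMS12-BM in place of 8 and 8. The block lost no call. It added RBM39 and RBM14 between the untreated lines, RBM39 between the drugs in JJN3, RBM28 in the amiloride interaction and RBM7 in the TG003 interaction. Whether same-numbered libraries pair across the lines was not checked. Between amiloride and TG003 in JJN3 they did not all deviate together. Removing the GC trend also added RBM14 between the untreated lines, RBM10 with amiloride in JJN3 and RBM7 in the TG003 interaction. Depth limits what can be said of RBM11, RBM34, RBM44 and, in KMS12-BM, RBM43 and RBM47.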

Other observations

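Genes related to the family that the rule leaves out showed further contrasts. RBMXL1, an intronless relative of RBMX, fell with TG003 in KMS12-BM from 152 to 58.4 CPM on average (-1.37 ± 0.07) and in JJN3 from 106 to 30.8 CPM (-1.75 ± 0.09), while RBMX was at 0.20 ± 0.08 in KMS12-BM (not called) and rose by 0.21 ± 0.08 in JJN3. Reads of such near copies can be split between them, and processed pseudogenes as a class held fewer reads in the TG003 libraries, and the part of read placement in the RBMXL1 values was not tested. CIRBP, the other cold-inducible RNA-binding protein gene, fell with TG003 in KMS12-BM (-0.33 ± 0.09) and was not called in JJN3 (-0.10 ± 0.09). With amiloride CIRBP fell in KMS12-BM (-0.41 ± 0.09) and was not called in JJN3 (0.08 ± 0.09). RBMS1 moved in opposite directions with amiloride, by -0.82 ± 0.14 in KMS12-BM and 0.94 ± 0.11 in JJN3. Of these RBM-like genes, 2 rose and 3 fell of 6 tested with amiloride in KMS12-BM and 1 and 2 of 8 in JJN3, and 2 rose and 2 fell with TG003 in each line. Of all genes, 33.5% and 35.2% were called higher and lower in the first of these comparisons, 19.7% and 23.9% in the second, and 26.9% and 31.7% (KMS12-BM) and 26.2% and 32.1% (JJN3) with TG003.

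Partner genes were also called between the untreated lines and between the drugs in JJN3. Of 12 minor spliceosome genes, 7 were higher and 4 lower in KMS12-BM than in JJN3 before treatment (median 0.64), where 36.8% of all genes were higher and 39.3% lower. In JJN3, 2 of the 12 were higher and 6 lower with amiloride than with TG003 (median -0.38, beside 33.3% and 28.9% of all genes), CENATAC at -1.31 ± 0.10. Of 12 exon junction complex genes, 5 were higher and 4 lower in untreated KMS12-BM (median 0.07, beside the same 36.8% and 39.3%), UPF3A at 2.56 ± 0.08.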
